A study of Homo sapiens with 3 samples.

Results

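A set of 10 genes that make cysteine, or that make, use, regenerate or break down glutathione, was followed in 5637 cells, an established human bladder cancer line. They are CBS, CTH, CHAC1, SLC7A11, GCLC, GCLM, GSS, GSR, GPX4 and GPX2, out of the 19225 gene symbols in the deposited table, chosen by name. The choice was made with the difference between siCDCA3 and siNC cells in view, so their values in that contrast are a description and carry no test. Where a gene has several transcripts, the one with the highest summed count stands for it.

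The series measured RNA in 2 libraries of CDCA3 knockdown by siRNA, called siCDCA3-1 and siCDCA3-2, and in 1 library with a control siRNA (siNC). All cells were labelled wild type, grew in RPMI 1640 with serum and received siRNA through Lipofectamine 3000, and the design text gives the aim as finding genes downstream of CDCA3, which encodes a protein of mitotic entry. The labels give neither the time of harvest nor whether siCDCA3-1 and siCDCA3-2 are different siRNAs or separate cultures, so the spread between them may be technical, and siNC has no replicate. CDCA3 itself, the targeted gene, had 0.574 and 1.40 RPKM in siCDCA3-1 and siCDCA3-2, against 5.52 RPKM in siNC.

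RPKM, the level used throughout, is reads per kilobase of transcript, scaled to a total per library. The deposited counts, lengths and RPKM give those totals as 104153360 (siCDCA3-1), 160640877 (siCDCA3-2) and 130459616 (siNC). The counts summed over genes, with 1 transcript each, were smaller, at 40420563, 62389922 and 50912733 in the same order. Intervals beside values are exact 95% intervals (binomial for ratios, Poisson for levels) and cover counting error only, not the spread between cultures. The epithelial markers were present (7 of 7 with a mean of at least 1 RPKM, summing to 1370, 1142 and 1632 RPKM in the same order). Of 8 urothelial markers 3 had a mean of at least 1 RPKM, GATA3, PPARG and FOXA1. FOXA1 had 5.25 and 2.00 RPKM in siCDCA3-1 and siCDCA3-2, against 3.45 RPKM in siNC. The uroplakins UPK1A, UPK1B, UPK2 and UPK3A, which mark differentiated urothelium, and KRT20 stayed under 0.81 RPKM in every library. Leukocyte and endothelial markers summed to at most 2.71 and 0.137 RPKM. Fibroblast markers, 1 of 7 with a mean of at least 1 RPKM (COL1A1), summed to 10.05 and 2.39 RPKM in siCDCA3-1 and siCDCA3-2, against 7.23 RPKM in siNC, and the part of this in the values below was not tested. In bulk RNA, fewer cells expressing a gene and less of its RNA per cell cannot be told apart.

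Glutathione is a tripeptide of glutamate, cysteine and glycine, and cysteine is usually what limits its synthesis. Cells take cysteine up as cystine through the exchanger encoded by SLC7A11, or make it from homocysteine by transsulfuration, in which CBS forms cystathionine and CTH cleaves it to cysteine. Glutamate-cysteine ligase (GCLC, with its modifier GCLM) and glutathione synthetase (GSS) then build glutathione, glutathione reductase (GSR) regenerates it, and GPX4 and GPX2 spend it on peroxides, GPX4 on those of membrane lipids. CHAC1 cleaves glutathione inside the cell. In mammalian cells the transcription factor ATF4 is known to drive CHAC1 and SLC7A11 when amino acids run short, and NRF2 is known to drive SLC7A11, GCLC, GCLM, GSR and GPX2 under oxidative stress.

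Because ATF4 and NRF2 bind short DNA elements, the promoters of the 10 genes were searched for the core letters of each. RefSeq promoters of GRCh38.p14, taken from 250 bases before a gene's start to 50 after it, were found for 7 genes, in 11 windows (CBS and GPX4 have 3 windows each), and not for SLC7A11, GSS and GSR. The core of the CEBP-ATF response element was searched as TGATGNAA and that of the antioxidant response element as TGACNNNGC, on both strands. The first matched CHAC1 and the second matched CBS (1 of 3 windows), GCLM and GPX2, with no overlap between matches. Among 35116 RefSeq promoter windows of the same length, 3.62% held the first core and 13.3% the second. The stretches below show these 4 matches and read 5′ to 3′ along the gene's strand. Capitals mark the match, which in all 4 lies on the opposite strand and so appears as its reverse complement. Each is a match of letters, and no binding was measured.
CHAC1, CEBP-ATF core (chr15:40953226-40953305, plus strand): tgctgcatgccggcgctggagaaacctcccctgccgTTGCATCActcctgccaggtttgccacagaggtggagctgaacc
CBS, antioxidant core (chr21:43076416-43076496, minus strand): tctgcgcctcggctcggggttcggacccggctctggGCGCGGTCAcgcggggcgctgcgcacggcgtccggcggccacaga
GCLM, antioxidant core (chr1:93909431-93909500, minus strand): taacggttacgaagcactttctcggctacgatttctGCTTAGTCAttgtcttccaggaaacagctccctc
GPX2, antioxidant core (chr14:64942823-64942903, minus strand): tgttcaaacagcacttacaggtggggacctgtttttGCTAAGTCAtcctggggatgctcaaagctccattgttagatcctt
Counted from the start, the CHAC1 match runs from -209 to -202, the CBS match from -83 to -75, the GCLM match from -34 to -26 and the GPX2 match from -122 to -114.

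The genes fell into 3 patterns. CBS, CTH, CHAC1 and GSS were lower than siNC in both siCDCA3 libraries. SLC7A11, GCLC, GCLM, GSR and GPX2 were lower than siNC in siCDCA3-1 and higher in siCDCA3-2. GPX4 did the opposite. Of the 10153 genes with a mean of at least 1 RPKM, which 9 of the 10 pass (GPX2 does not), 27.8% were lower in both libraries, 30.8% lower in siCDCA3-1 and higher in siCDCA3-2, and 17.8% the reverse. The median log2 ratio of the 10 genes to siNC was -0.69 in siCDCA3-1 and -0.08 in siCDCA3-2, beside -0.08 and 0.06 for the 10153 genes. Both ratios use the single siNC library, so a low or high value there moves both.

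**Figure D1:**
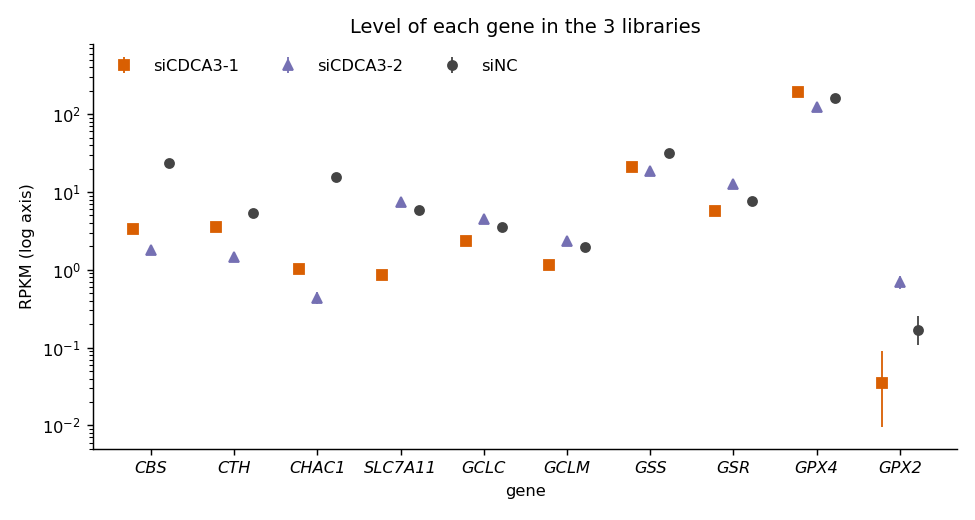
RPKM (log axis) of the 10 genes in siCDCA3-1 (squares), siCDCA3-2 (triangles) and siNC (circles), with exact 95% Poisson intervals of the counts, which are mostly smaller than the symbols. CBS, CTH, CHAC1, GSS and GPX4 are lowest in siCDCA3-2, whereas SLC7A11, GCLC, GCLM, GSR and GPX2 are lowest in siCDCA3-1 and highest in siCDCA3-2.

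CBS and CTH, the transsulfuration enzymes, were lower than siNC in both siCDCA3 libraries. The difference was larger for CBS, and that of CTH was under 2-fold in siCDCA3-1. CBS (NM_000071.2, chromosome 21, 43053191 to 43076873 on GRCh38) had 905 and 744 counts in siCDCA3-1 and siCDCA3-2, against 7880 in siNC, or 3.36 and 1.79 RPKM against 23.3 RPKM. The siCDCA3-1 value is 14.4% of siNC (13.4% to 15.4%) and the siCDCA3-2 value is 7.67% (7.10% to 8.27%). All 5 of its listed transcripts, which share most of their reads, gave 13.9% to 14.4% and 7.53% to 8.26%. CBS reads cannot be assigned with certainty, because 92.4% of the 100-base windows of its transcript also occur in CBSL, a near-identical gene on the same chromosome (6444869 to 6468040, GENCODE 29). CBSL was not analysed here, so the CBS values may be those of both copies.

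CTH (NM_001902.5, chromosome 1, 70411268 to 70439851) had 3.59 and 1.47 RPKM in siCDCA3-1 and siCDCA3-2, against 5.43 RPKM in siNC. Its level was 66.1% of siNC in siCDCA3-1 (60.6% to 72.1%) and 27.2% in siCDCA3-2 (24.5% to 30.1%), so the siCDCA3 libraries lay farther apart from each other than counting error allows. No 100-base window of its 1 transcript searched occurs in another gene's transcripts. The RPKM ratio of CBS to CTH was 0.935 in siCDCA3-1 (0.849 to 1.03) and 1.21 in siCDCA3-2 (1.08 to 1.36), against 4.30 in siNC (4.07 to 4.54). Measured per length, the CBS value exceeded that of CTH several-fold in siNC cells and was close to it in both siCDCA3 libraries. The CBS value may include CBSL reads, which these intervals do not cover.

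CHAC1, which breaks glutathione down, had the lowest ratio to siNC of the 10 genes in each siCDCA3 library. CHAC1 (NM_024111.4, chromosome 15, 40953471 to 40956512) had 200 and 129 counts in siCDCA3-1 and siCDCA3-2, against 3798 in siNC, which are 1.04 and 0.434 RPKM against 15.7 RPKM. This amounted to 6.60% of siNC (5.69% to 7.61%) and 2.76% (2.30% to 3.29%). Among the 10153 genes, it held the third lowest ratio to siNC in siCDCA3-1 and the seventh lowest in siCDCA3-2. Its longest protein-coding transcript in GENCODE 29, the one searched, shares no 100-base window with another gene.

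Lower than siNC by 2-fold or more in both siCDCA3 libraries were 2 of the 10 genes, CBS and CHAC1, a size reached by 1.02% of the 10153 genes. None of the 10 was higher by that much in both (0.364% of all). Taken singly, siCDCA3-1 had 4 of the 10 genes at least 2-fold lower (CBS, CHAC1, SLC7A11 and GPX2, where 3.59% of all genes were) and 0 higher (1.83% of all). siCDCA3-2 had 3 lower (CBS, CTH and CHAC1, 5.67% of all) and 1 higher (GPX2, 3.69% of all). These shares are over the 10153 genes, and GPX2 is not among them. Of the 9 genes that are, 3 were at least 2-fold lower in siCDCA3-1 and 0 higher in siCDCA3-2.

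In the quasi-likelihood test of edgeR, adjusted by Benjamini-Hochberg over the 10153 genes, 0.0295% were called lower and 0% higher. CHAC1 was the 1 of the 9 genes tested that was among them. DESeq2, which called 0.0788% lower and 0.0197% higher, called CBS and CHAC1, and limma called no gene. At an unadjusted p under 0.05, DESeq2 had 0.985% lower and 0.542% higher and limma 0.975% lower and 0.217% higher. As the genes were picked with this contrast known, nothing is read from these counts.

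**Figure D2:**
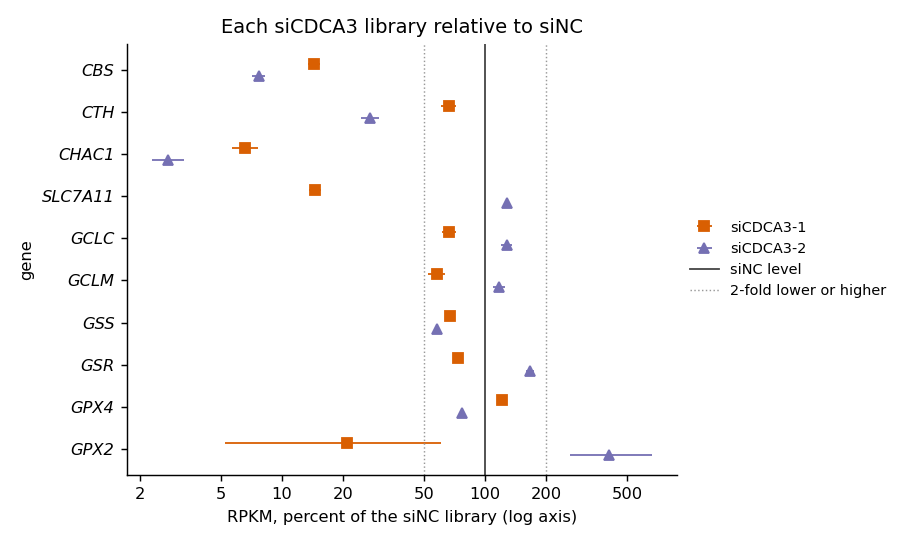
RPKM in siCDCA3-1 (squares) and siCDCA3-2 (triangles) as a percent of the siNC library (log axis), with exact 95% binomial counting intervals. The solid line is the siNC level and the dotted lines mark 2-fold lower and higher. CBS and CHAC1 lie left of the 2-fold line in both libraries, and SLC7A11 lies at 14.6% in siCDCA3-1 and at 128% in siCDCA3-2.

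SLC7A11, the cystine importer, was where the siCDCA3 libraries disagreed most among the genes with a mean of at least 1 RPKM in the set. SLC7A11 (NM_014331.3, chromosome 4, 138164097 to 138242349) had 853 and 11567 counts in siCDCA3-1 and siCDCA3-2, against 7333 in siNC, or 0.849 and 7.46 RPKM against 5.83 RPKM. Its level was 14.6% of siNC in siCDCA3-1 (13.6% to 15.6%) and 128% in siCDCA3-2 (124% to 132%). The siCDCA3-1 ratio was close to that of CBS, while siCDCA3-2 was 8.79-fold higher than siCDCA3-1 (8.20 to 9.44), the fourth largest such ratio among the 10153 genes. The RPKM ratio of SLC7A11 to CBS was therefore 0.253 in siCDCA3-1 and 4.17 in siCDCA3-2, against 0.250 in siNC. The CBS value in it may include CBSL reads. An antisense gene, SLC7A11-AS1, covers 865 of the 9645 exon bases (7.07% of 100-base windows are shared). The sources used here do not say whether counting used strand, so its reads may be included.

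The subunits of glutamate-cysteine ligase differed from siNC in the same way. Its catalytic subunit GCLC (NM_001498.3, chromosome 6, 53497341 to 53545101) had 2.36 and 4.53 RPKM in siCDCA3-1 and siCDCA3-2, against 3.54 RPKM in siNC. The modifier GCLM (NM_002061.3, chromosome 1, 93885199 to 93909430) had 1.15 and 2.33 RPKM, against 1.99 RPKM in siNC. GCLC thus stood at 66.7% and 128% of siNC and GCLM at 57.9% and 117%, differences under 2-fold in each library. Between the genes, the RPKM ratio of GCLC to GCLM varied little, at 2.05 in siCDCA3-1 (1.85 to 2.28) and 1.94 in siCDCA3-2 (1.83 to 2.06), against 1.78 in siNC (1.66 to 1.92). The siCDCA3-2 level was 1.92-fold that of siCDCA3-1 for GCLC (1.78 to 2.07) and 2.03-fold for GCLM (1.85 to 2.22).

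GSS, which adds glycine to complete glutathione, did not follow the ligase. GSS (NM_000178.3, chromosome 20, 34928432 to 34956027) had 21.2 and 18.5 RPKM in siCDCA3-1 and siCDCA3-2, against 31.7 RPKM in siNC. Both siCDCA3 libraries lay below siNC, at 66.9% (64.5% to 69.5%) and 58.3% (56.3% to 60.3%), and they were the closest pair of siCDCA3 values among the 10 genes. GSR, which regenerates reduced glutathione from its oxidised form (NM_000637.3, chromosome 8, 30678066 to 30727846), had 5.62 and 12.7 RPKM, against 7.65 RPKM in siNC. It stood at 73.5% of siNC in siCDCA3-1 (69.4% to 77.9%) and at 167% in siCDCA3-2 (160% to 174%). Its 4 listed transcripts gave 70.2% to 73.5% and 167% to 174%.

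The peroxidases differed by orders of magnitude in level. GPX4 (NM_001039847.2, chromosome 19, 1103994 to 1106779) was the most abundant of the 10 genes, with 195 and 124 RPKM in siCDCA3-1 and siCDCA3-2, against 161 RPKM in siNC. It was the gene of the set that was higher in siCDCA3-1, at 121% of siNC (119% to 124%), and lower in siCDCA3-2, at 76.8% (75.3% to 78.3%). GPX2, the epithelial peroxidase (NM_002083.3, chromosome 14, 64939158 to 64942745), stayed under 1 RPKM in every library. It had 4 and 121 counts in siCDCA3-1 and siCDCA3-2, against 24 in siNC. Those counts are 0.0353 and 0.692 RPKM, against 0.169 RPKM, and the ratio to siNC was 20.9% (5.27% to 60.8%) and 409% (263% to 664%). The wide intervals show how little the small counts fix the size of the GPX2 differences.

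Order by RPKM also differed between libraries. In siCDCA3-1 the order was GPX4, GSS, GSR, CTH, CBS, GCLC, GCLM, CHAC1, SLC7A11 and GPX2, with overlapping counting intervals for CTH and CBS, for GCLM and CHAC1 and for CHAC1 and SLC7A11. In siCDCA3-2 it was GPX4, GSS, GSR, SLC7A11, GCLC, GCLM, CBS, CTH, GPX2 and CHAC1, with no overlap between neighbours. In siNC it was GPX4, GSS, CBS, CHAC1, GSR, SLC7A11, CTH, GCLC, GCLM and GPX2, with overlap for SLC7A11 and CTH.

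Set directly against each other, the siCDCA3 libraries differed at least 2-fold at 6 of the 10 genes. SLC7A11, GCLM, GSR and GPX2 were higher in siCDCA3-2 than in siCDCA3-1, as were 9.77% of the 10153 genes, and CTH and CHAC1 were lower, as were 6.3%. GPX2 is not itself among the 10153 genes. The comparison is 1 library against 1, so no test was possible. Across genes, the difference between these libraries moved with the GC content of the transcript. Genes were placed in 5 equal bins by GC content. In the bin of genes with the lowest GC content (32.0% to 41.8%) the median log2 ratio of siCDCA3-2 to siCDCA3-1 was 0.57, and in the bin with the highest (59.2% to 75.6%) it was -0.14. Across 10131 genes, which are not independent, Spearman's rho between GC content and that ratio was -0.41. For the ratio to siNC, rho was -0.39 in siCDCA3-2 and 0.13 in siCDCA3-1. The siCDCA3-2 values relative to siNC thus carry the trend as well.

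**Figure D3:**
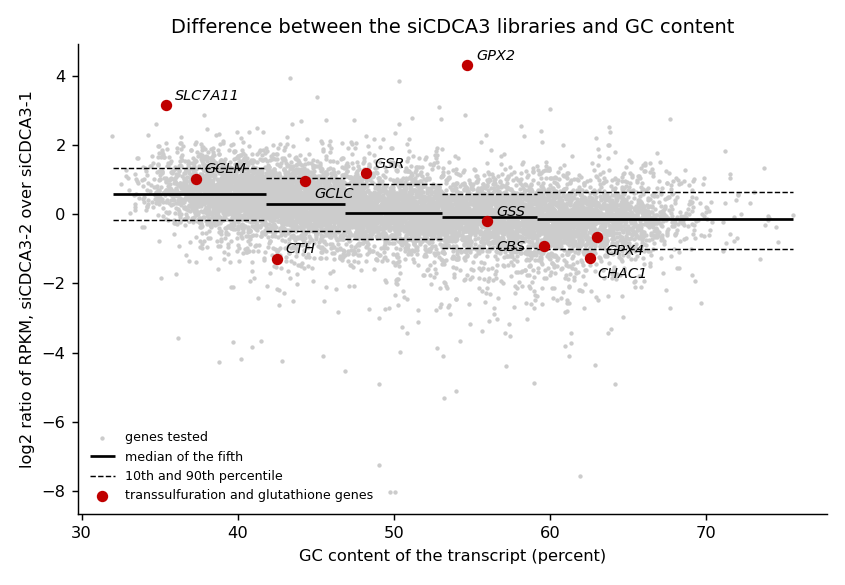
Log2 ratio of RPKM in siCDCA3-2 to siCDCA3-1 against the GC content of the transcript, for the genes tested (grey) and the 10 genes (red, named), with the median and the 10th and 90th percentile of each of 5 GC bins as lines. GCLC and GCLM lie between the percentile lines, SLC7A11, GSR and GPX2 above the upper one and CTH and CHAC1 below the lower one.

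SLC7A11 (GC content 35.4%) and GCLM (37.3%) lie in the lowest bin, and GCLC (44.3%) in the second. GCLM, with a log2 ratio of 1.02, and GCLC, with 0.94, lay inside the 10th to 90th percentile of their bins, which run from -0.16 to 1.34 and from -0.49 to 1.04. SLC7A11, with 3.14, lay above that range, as did GSR, with 1.18 and a 90th percentile of 0.86. With the median of its bin subtracted, which was tried only once the data had been seen, SLC7A11 stood at -2.55 from siNC in siCDCA3-1 and at -0.004 in siCDCA3-2, and GCLM at -0.56 and -0.13, so their higher level in siCDCA3-2 than in siNC was not kept. CBS (-2.75 and -3.50) and CHAC1 (-3.88 and -4.98) changed little, with both libraries still far below siNC. The part of GC content in these differences was not tested.

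Genes with the most similar values were sought by the distance between their 2 log2(RPKM + 1) differences from siNC, over 5494 other genes with a mean of at least 5 RPKM. Nearest to CBS were PCK2, TRIB3 and GDF15 (distances 0.479, 0.897 and 1.06), and the same 3 genes were nearest to CHAC1 (1.08, 1.19 and 1.39). SLC7A11 lay nearest to DLL1, GGCT and AREG (0.237, 0.245 and 0.337). CTH lay nearest to SYTL1, ADA and CBLC (0.0325, 0.0393 and 0.0831). Each distance rests on 2 differences, both against the single siNC library.

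Other genes of cysteine and glutathione metabolism, in 10 lists, numbered 169, of which 168 were in the table and 124 had a mean of at least 1 RPKM and entered the test. None passed the edgeR test in either direction after adjustment. At an unadjusted p under 0.05, edgeR gave 10 lower and 0 higher genes, where 0.965% and 0.355% of all tested genes lay under that p. DESeq2 called 1 of them lower (TRIB3) and limma called 0. Lower in both siCDCA3 libraries were 43 of the 124, and 26 were higher in both, beside 27.8% and 23.6% of all tested genes. The lists were written with earlier results of these data known, so nothing is read from these counts or from those of single lists below.

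**Figure D4:**
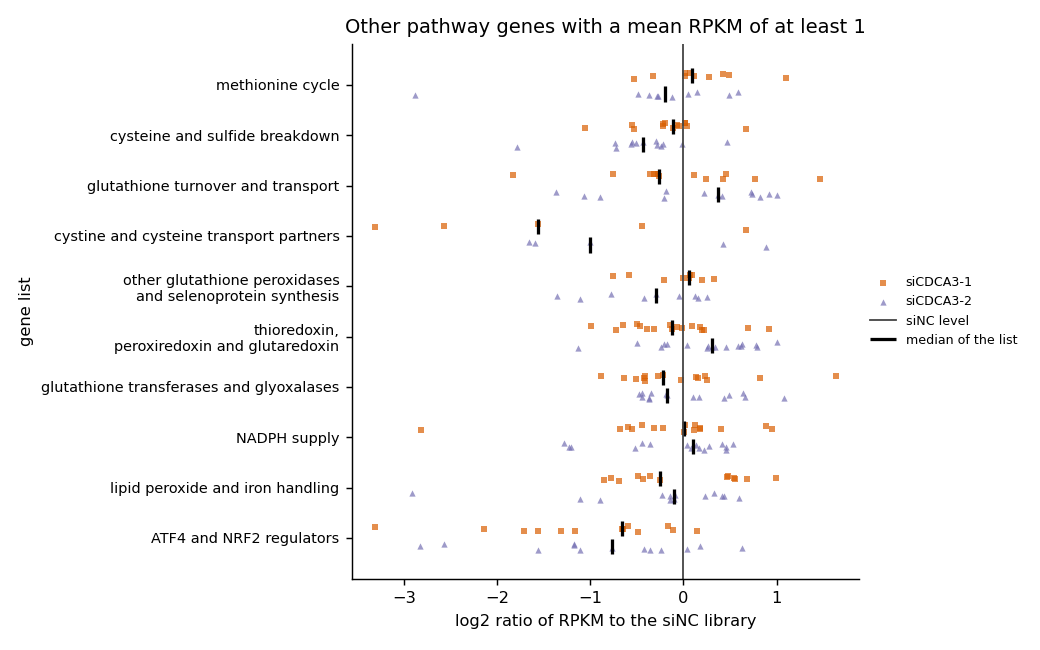
Log2 ratio of RPKM to siNC for the 124 other pathway genes with a mean of at least 1 RPKM, by list, in siCDCA3-1 (squares, upper row) and siCDCA3-2 (triangles, lower row), with the list's median as a bar and siNC as the line at 0. The medians of the cystine and cysteine transport partners lie at -1.56 and -1.0, and those of the ATF4 and NRF2 regulators at -0.66 and -0.76.

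Transport partners and regulators had the lowest medians. Of 5 tested transport genes 3 were lower in both libraries and 1 higher, beside 27.8% and 23.6% of all tested genes. Their medians were -1.56 in siCDCA3-1 and -1.0 in siCDCA3-2. SLC3A2, the heavy chain that pairs with SLC7A11, had 112 and 165 RPKM in siCDCA3-1 and siCDCA3-2, against 329 RPKM in siNC (edgeR log2 fold change -1.25, adjusted p = 0.9997). SLC1A5, a carrier of neutral amino acids, had 26.6 and 49.7 RPKM, against 157 RPKM (-2.05, edgeR adjusted p = 0.9997). SLC3A2 was thus low in siCDCA3-2 as well, where SLC7A11 was not.

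Among 13 regulators 10 were lower in both libraries and 1 (KEAP1) higher, beside 27.8% and 23.6% of all tested genes. As the list was written with earlier results known, nothing is read from this count. MAFF and MAFK were lower than siNC in siCDCA3-1 only. The medians of the list were -0.66 in siCDCA3-1 and -0.76 in siCDCA3-2. TRIB3, a pseudokinase induced by ATF4, had 3.17 and 5.28 RPKM in siCDCA3-1 and siCDCA3-2, against 31.3 RPKM in siNC (-2.89, edgeR adjusted p = 0.09095). NFE2L1, a relative of NRF2, had 34.1 and 25.9 RPKM, against 76.7 RPKM (-1.33, edgeR adjusted p = 0.9997). ATF4 and NFE2L2, which encodes NRF2, were chosen after their values were seen, because they encode the factors named above. ATF4 had 33.3 and 36.7 RPKM in siCDCA3-1 and siCDCA3-2, against 83.1 RPKM in siNC (-1.24, edgeR adjusted p = 0.9997). NFE2L2 had 12.1 and 10.0 RPKM, against 17.0 RPKM (-0.60, edgeR adjusted p = 0.9997). RNA of both factors was lower than siNC in both siCDCA3 libraries, without a call, and their protein and activity were not measured.

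Lists upstream of cysteine and downstream of it showed smaller medians. Of all tested genes, 27.8% were lower in both libraries and 23.6% higher. The methionine cycle, which supplies homocysteine to CBS, had 1 of 10 genes lower in both libraries and 3 higher (medians 0.09 and -0.20). MAT2A, which makes S-adenosylmethionine, had 21.2 and 31.5 RPKM in siCDCA3-1 and siCDCA3-2, against 20.9 RPKM in siNC, and PEMT had 6.36 and 7.58 against 9.23 RPKM. Of 13 genes of cysteine and sulfide breakdown 8 were lower in both and 0 higher (medians -0.11 and -0.43). SQRDL, the mitochondrial sulfide oxidising enzyme, had 17.9 and 5.06 RPKM, against 17.5 RPKM in siNC, and GOT1 had 5.34 and 7.83 against 11.2 RPKM. Every edgeR adjusted p in these lists was 0.9997.

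Glutathione turnover and transport had 2 of 13 genes lower in both libraries and 3 higher (medians -0.26 and 0.37). Of all tested genes, 27.8% were lower in both and 23.6% higher. GGCT, a cyclotransferase that acts on gamma-glutamyl amino acids, had 5.45 and 25.6 RPKM in siCDCA3-1 and siCDCA3-2, against 19.3 RPKM in siNC, the low and high order seen for SLC7A11. SLC25A39, the mitochondrial glutathione importer, had 60.3 and 41.4 RPKM, against 77.1 RPKM. The glutathione transferases and glyoxalases had 4 of 15 lower in both and 2 higher (-0.22 and -0.18), with PTGES at 199 and 71.9 RPKM, against 64.1 RPKM, and MGST1 at 35.0 and 46.5, against 29.4 RPKM. Both lists had an edgeR adjusted p of 0.9997 for each gene named here.

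The peroxide removal lists outside the 10 genes had medians on both sides of siNC. Other glutathione peroxidases and selenoprotein synthesis genes had 3 of 9 lower in both libraries and 2 higher (medians 0.06 and -0.29). Of all tested genes, 27.8% were lower in both and 23.6% higher. GPX1, the cytosolic peroxidase, had 37.3 and 39.0 RPKM in siCDCA3-1 and siCDCA3-2, against 35.0 RPKM in siNC, and EEFSEC, which delivers selenocysteine to the ribosome, had 6.07 and 4.96 against 6.08 RPKM. The thioredoxin, peroxiredoxin and glutaredoxin list had 4 of 17 lower in both and 5 higher (-0.12 and 0.30). PRDX5 had 76.2 and 45.7 RPKM, against 100 RPKM, and GLRX5 had 16.0 and 27.6, against 13.8 RPKM. The edgeR adjusted p was 0.9997 for all 4 genes.

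NADPH supply, which GSR depends on, had 4 of 16 genes lower in both libraries and 7 higher (medians 0.01 and 0.11). Of all tested genes, 27.8% were lower in both and 23.6% higher. MTHFD2, a mitochondrial folate enzyme, had 7.23 and 21.8 RPKM in siCDCA3-1 and siCDCA3-2, against 51.0 RPKM in siNC (-1.84, edgeR adjusted p = 0.9997), and PGLS had 25.1 and 16.0, against 36.9 RPKM. In the lipid peroxide and iron list 4 of 13 were lower in both and 2 higher (-0.25 and -0.10). SAT1, a polyamine acetyltransferase, had 106 and 88.3 RPKM, against 190 RPKM in siNC, and ACSL4, which activates the long polyunsaturated fatty acids that GPX4 guards, had 6.57 and 6.15, against 4.08 RPKM. None of these 4 genes passed the edgeR test (adjusted p = 0.9997).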

How the data were processed

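The authors deposited, per the file headers, a whole-number read count and an RPKM for each of 45006 RefSeq transcripts in each of the 3 libraries. The submitters' processing notes name Trimmomatic 0.36, FastQC, HISAT2 and HTSeq, with a human and a mouse build and no roles. Strand use was not stated. As 98.6% of accessions matched RefSeq GRCh38.p14, human coordinates were used. Symbols turned into dates by a spreadsheet were restored in 102 of 103 rows.

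The members and lists were chosen with earlier results of these data known. Named by rule, besides cell type markers, are the 10 members, CDCA3 and the 3 genes most like each of 4 members. Each list also gave its called genes, or else its 2 genes of largest mean change at 5 RPKM or more. ATF4, NFE2L2, ABCC3, ABCC1, FTH1, NNMT and CHAC2 were added after their values were seen. KEAP1, MAFF and MAFK are named for the direction of their values, and SLC1A4 for a call of edgeR without a filter. Genes with a mean of at least 1 RPKM were tested with edgeR 4.0.16 in R 4.3.3 (TMM, quasi-likelihood, two-sided, Benjamini-Hochberg over 10153 genes). Counts simulated to check the code were given a lower spread between libraries than the data (common dispersion 0.126). They do not show the power of the test here. The fit has 1 residual degree of freedom and assumes that siNC varies like siCDCA3. DESeq2 1.42.0, limma 3.58.1 on log2(RPKM + 1), other filters, scalings, pseudocounts and transcripts were alternatives. Windows of 100 bases and GC content came from GENCODE 29 transcripts.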

Additional observations from a re-analysis of the deposited data

How the results depend on the processing

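Under pseudocounts of 0.1, 0.5 and 1, TMM and median-of-ratios scaling, the longest transcript and subtraction of the GC median (added after the data were seen), 2 members stayed at least 2-fold lower in both siCDCA3 libraries. With 1 siCDCA3 library left out the count was 3 (without siCDCA3-1, CTH added) to 4 (without siCDCA3-2, SLC7A11 and GPX2 added). Each of the 30 member ratios kept its sign under these settings, except that the GC subtraction turned SLC7A11 (-0.004) and GCLM (-0.13) in siCDCA3-2. TMM moved the median log2 ratio of siCDCA3-2 to siCDCA3-1 over all genes to -0.02, against 0.12 as deposited. Under both TMM and median-of-ratios scaling, 3 members were at least 2-fold higher in siCDCA3-2 (GCLM left) and 3 at least 2-fold lower (CBS joined).

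The count of calls depended on the test. Over all genes edgeR called 3 lower and 0 higher. DESeq2 called 8 lower and 2 higher, edgeR without a filter 18 and 4, and limma and edgeR at a mean of at least 5 RPKM called 0 lower. Among other pathway genes, 0 lower became 1 with DESeq2 (TRIB3) and 2 without a filter (SLC1A4 and TRIB3). The cause was not tested. Leaving out 1 siCDCA3 library leaves no residual degrees of freedom, so those edgeR fits were not run. No paired analysis was possible because siNC has a single library. Depth limits GPX2, with 4 counts in siCDCA3-1.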

Other observations

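Some pathway genes outside the 10 were, like GPX4, high in siCDCA3-1 and low in siCDCA3-2, and are given as values chosen after they were seen. The exporters of glutathione conjugates ABCC3 and ABCC1 had 15.9 and 10.4 RPKM in siCDCA3-1 and 2.74 and 2.93 RPKM in siCDCA3-2, against 5.75 and 7.58 RPKM in siNC. FTH1, the ferritin heavy chain, had 2670 and 719 RPKM in siCDCA3-1 and siCDCA3-2, against 1338 RPKM in siNC, and its processed pseudogenes make its counts uncertain. NNMT, which uses S-adenosylmethionine to methylate nicotinamide, had 4.67 and 0.296 RPKM, against 2.18 RPKM in siNC. CHAC2, the constitutive relative of CHAC1, had 1.74 and 4.16 RPKM, against 2.08 RPKM in siNC, and so was not low in siCDCA3-2 as CHAC1 was. None of these 5 genes passed the edgeR test (adjusted p = 0.9997), and the difference between the siCDCA3 libraries has no replicate.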
